A study of Bos taurus with 16 samples.

Results

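A set of 9 genes of T cells and natural killer (NK) cells was followed through the RNA of cells aspirated from the dominant ovarian follicle of dairy cows. They were listed by name, with earlier results of these data known, as CD3D, CD3E, CD3G, CD8A, CD8B, CD2, NKG7, GZMB and PRF1. All 9 had counts, among 20629 transcript features in all, and counts of all RefSeq accessions of a gene were summed. The 16 libraries came from lactating Holstein cows (Bos taurus) sampled 63 ± 3 days after calving, and 9 carry the label control and 7 the label treatment. The study's title concerns granulosa cells, the hormone-making cells that line the follicle, after a uterine disease has resolved. All cows were in a programme of gonadotropin-releasing hormone and prostaglandin that synchronises ovulation, and the study's text states that cows with metritis had received the antibiotic ceftiofur. The labels do not say what treatment stands for, do not tie libraries to cows, and give blood as the tissue of all 16 although the protocol describes washed follicular cells. P-values therefore measure the spread between these libraries only.

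T cells recognise antigen through a receptor whose signal is carried by the CD3 chains, gamma, delta and epsilon, which assemble with it at the cell surface. CD2 is an adhesion molecule of T and NK cells, and the CD8 alpha and beta chains form the coreceptor of cytotoxic T cells. Cytotoxic T cells and NK cells kill by releasing perforin (PRF1) and granzymes such as GZMB from granules, and NKG7 is a membrane protein of these granules. Leukocytes, T cells among them, are known to enter the follicle wall around ovulation. In the gene order RefSeq gives for ARS-UCD2.0, CD3E, CD3D and CD3G lie side by side in that order, and CD8B lies next to CD8A.

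The libraries were of 2 kinds, separated by INHA, which granulosa cells express and which encodes the inhibin alpha chain. Levels are given in CPM, the counts of a gene scaled to a common total of transcript counts per library. INHA was above 1000 CPM in 9 libraries, called granulosa-rich (control replicates 2, 3, 4, 7 and 8 and treatment replicates 4 to 7, between 1759 and 3041 CPM). It was under 200 CPM in 7, called leukocyte-rich (control replicates 1, 5, 6 and 9 and treatment replicates 1 to 3). Among the 7, treatment replicate 1 had the highest INHA, at 111 CPM, and the other 6 lay at 4.75 CPM or lower. Apart from INHA, whose separation the rule fixed, 7 of 11 granulosa markers tested were lower in every leukocyte-rich than in every granulosa-rich library, as were 6.1% of all features tested. Of 12 monocyte and macrophage markers tested, 10 were higher, and their summed level over 13 measured genes was 7833 to 15717 CPM against 24.0 to 2022 CPM. The kinds describe the libraries and are no groups of the study, so they are compared without a test. The files held 8111862 to 14348753 counts per library, so that 3 counts were worth 0.212 to 0.375 CPM, and such limits cover counting error only. In RNA from whole aspirates, fewer cells of a type and less RNA per cell cannot be told apart.

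The CD3 chains were found in all 16 libraries. CD3E (NM_174011.3), the epsilon chain, stood at 2.06, 70.5, 7.57, 9.73 and 13.2 CPM in granulosa-rich control replicates 2, 3, 4, 7 and 8. In granulosa-rich treatment replicates 4, 5, 6 and 7 it stood at 25.1, 3.86, 38.5 and 34.0 CPM. In leukocyte-rich control replicates 1, 5, 6 and 9 it was at 59.9, 389, 41.6 and 125 CPM, and in treatment replicates 1, 2 and 3 at 279, 148 and 371 CPM. The leukocyte-rich libraries were the higher ones, with a median of 148 CPM against 13.2 CPM. The kinds overlapped through 1 library, since granulosa-rich control replicate 3 lay above leukocyte-rich control replicates 1 and 6. CD3D (NM_001034033.2), the delta chain, ran from 0.397 to 33.2 CPM (median 7.44) in granulosa-rich and from 20.4 to 196 CPM (median 70.8) in leukocyte-rich libraries. CD3G (NM_001040472.2), the gamma chain, ran from 0.635 to 43.6 CPM (median 7.47) and from 14.8 to 162 CPM (median 60.7). For each of the 3 chains, control replicate 2 was the lowest of the granulosa-rich libraries, control replicate 3 the highest, and control replicate 6 the lowest of the leukocyte-rich ones.

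CD2 (NM_001011676.3) had the same lowest libraries in each kind. It stood at 0.0793, 13.7, 1.13, 1.78 and 8.74 CPM in granulosa-rich control replicates 2, 3, 4, 7 and 8, and at 12.3, 0.712, 13.9 and 12.2 CPM in treatment replicates 4, 5, 6 and 7. In the leukocyte-rich libraries it was at 28.0, 144, 14.8 and 64.7 CPM in control replicates 1, 5, 6 and 9 and at 116, 42.4 and 180 CPM in treatment replicates 1, 2 and 3. The kinds just failed to overlap, at 13.9 against 14.8 CPM, and they did overlap when CPM were computed without the 10 most abundant genes of each library.

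The 2 CD8 chains were found at lower counts, and any reads that match more than 1 gene cannot be assigned with certainty. CD8A (NM_174015.1), the alpha chain, was not detected in granulosa-rich control replicate 2 (0 counts, which allows up to 0.238 CPM) and stood at 19.4, 1.06, 7.78 and 3.02 CPM in control replicates 3, 4, 7 and 8. In granulosa-rich treatment replicates 4, 5, 6 and 7 it was at 8.24, 1.42, 24.9 and 24.5 CPM. In leukocyte-rich control replicates 1, 5, 6 and 9 it was at 15.0, 75.2, 5.33 and 28.7 CPM, and in treatment replicates 1, 2 and 3 at 119, 17.9 and 79.8 CPM. Here 5 of the 9 granulosa-rich libraries lay above the lowest leukocyte-rich one, so the kinds overlapped widely. CD8B (NM_001105344.2), the beta chain, stood at 0.238, 2.86, 2.83, 0.892 and 1.83 CPM in granulosa-rich control replicates 2, 3, 4, 7 and 8 and at 3.74, 1.02, 14.0 and 9.91 CPM in treatment replicates 4, 5, 6 and 7. It was at 10.3, 50.7, 3.23 and 8.62 CPM in leukocyte-rich control replicates 1, 5, 6 and 9 and at 88.0, 11.4 and 38.7 CPM in treatment replicates 1, 2 and 3. Treatment replicate 1 was the highest library of all 16 for both chains, whereas control replicate 5 was the highest for CD3E.

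The cytotoxic genes did not follow 1 pattern. PRF1 (XM_005226334.3) ran from 0.159 to 9.13 CPM (median 2.31) in granulosa-rich libraries, lowest in control replicate 2 and highest in treatment replicate 7. In leukocyte-rich libraries it ran from 4.85 to 77.6 CPM (median 19.6), lowest in control replicate 6 and highest in control replicate 5, the same pair as for CD3E.

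GZMB (NM_174296.2) was low in every library, at 14 counts or fewer. In granulosa-rich control replicates 2, 3, 4, 7 and 8 it had 0, 9, 0, 0 and 0 counts, and in treatment replicates 4, 5, 6 and 7 it had 1, 7, 14 and 13. In leukocyte-rich control replicates 1, 5, 6 and 9 it had 14, 9, 0 and 0 counts, and in treatment replicates 1, 2 and 3 it had 11, 0 and 1. Thus 7 of 16 libraries had none, which allows up to 0.212 to 0.375 CPM, and the highest level was 1.38 CPM. It was too low to enter any of the fits below.

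NKG7 (XM_005219544.2) stood apart from the other genes. In the granulosa-rich libraries it was nearly absent, at 0, 0.831, 0.212, 0.405 and 0 CPM in control replicates 2, 3, 4, 7 and 8 and at 3.74, 0.508, 1.78 and 0.787 CPM in treatment replicates 4, 5, 6 and 7. In the leukocyte-rich libraries it was at 16.7, 13.4, 17.4 and 27.1 CPM in control replicates 1, 5, 6 and 9 and at 20.6, 13.8 and 12.3 CPM in treatment replicates 1, 2 and 3. The kinds did not overlap and their medians differed 32.8-fold, against 3.69-fold (CD8A) to 11.3-fold (CD3E) for CD3D, CD3E, CD3G, CD8A, CD8B, CD2 and PRF1. Control replicate 6, the leukocyte-rich library with the least CD3E, had the third highest NKG7, and control replicate 5, with the most CD3E, the second lowest.

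**Figure D1:**
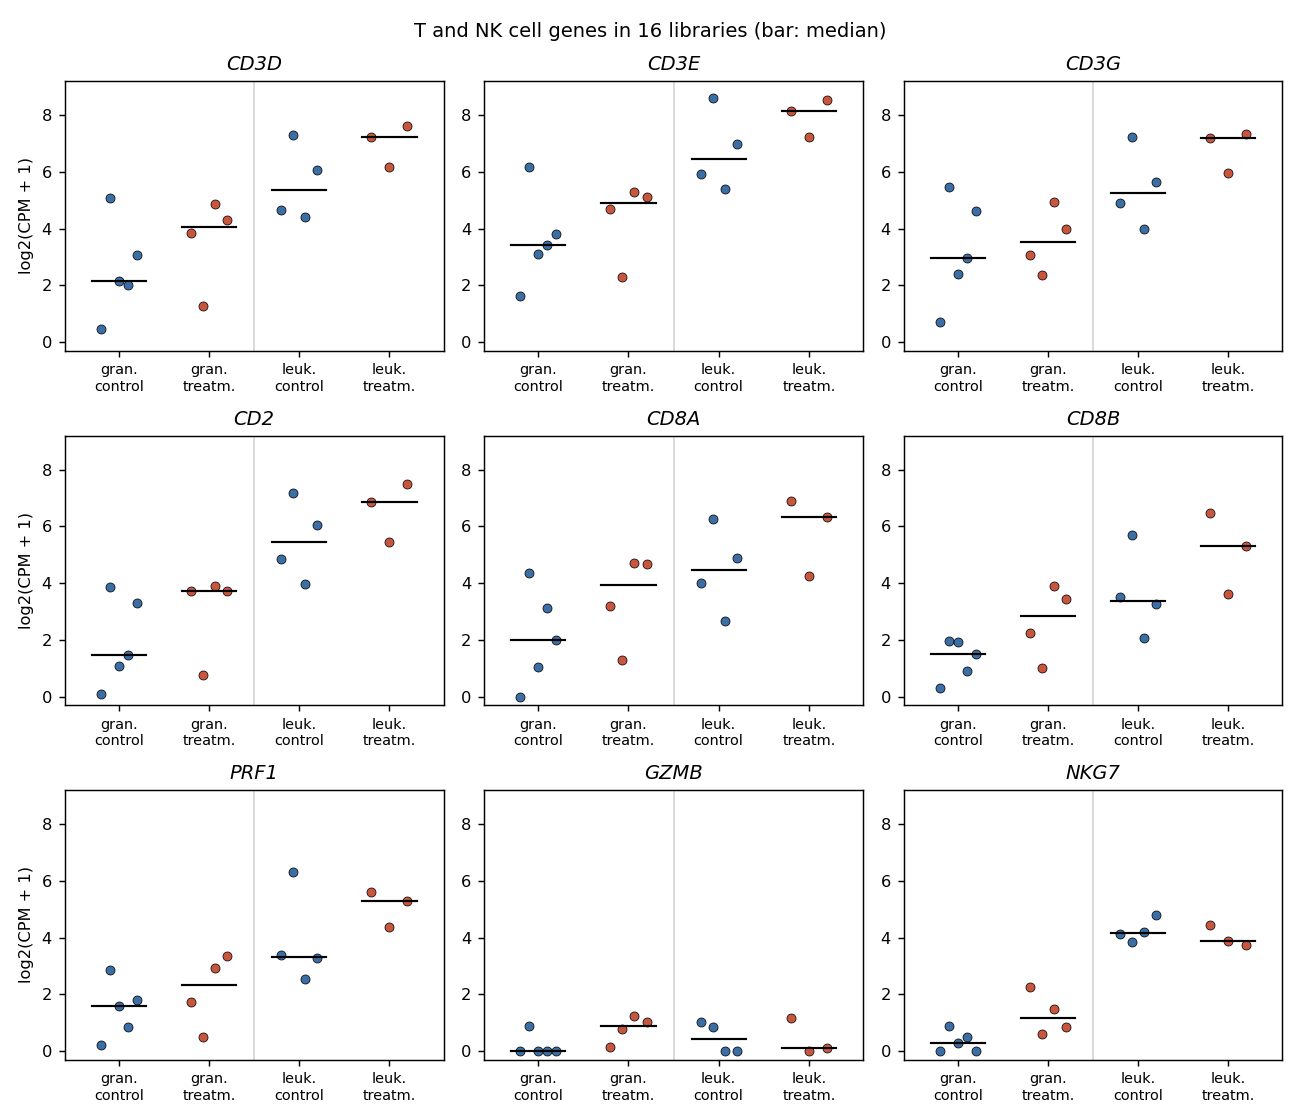
Levels of the 9 genes in 16 libraries as log2(CPM + 1), by kind of library (gran., granulosa-rich; leuk., leukocyte-rich) and label (blue, control; red, treatment), 1 point per library and a bar at the median. CD3E, CD3D, CD3G, CD2, CD8A, CD8B and PRF1 spread widely within each kind, NKG7 separates the kinds (at most 3.74 CPM against at least 12.3 CPM), and GZMB stays at 1.38 CPM or lower.

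Across all features tested, 11.6% lay higher in every leukocyte-rich than in every granulosa-rich library. Of the 8 genes that passed the filter on low counts, 2 did so, CD2 and NKG7. The other T cell receptor and signalling genes gave 2 of 18, close to that background, the T cell transcription factors 0 of 7 and the cytotoxic granule genes 2 of 11. The NK receptors and adaptors gave 2 of 6, TYROBP and FCER1G, adaptors that myeloid cells share. The T and NK cytokine receptors and homing genes gave 5 of 9. Among pan-leukocyte genes it was 9 of 11, among monocyte and macrophage genes 10 of 12. Without granulosa-rich control replicate 3, the count among the 8 genes was 3. A median at least 2 times as high in the leukocyte-rich kind was found for all 8, where 26.2% of features had one.

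Within the leukocyte-rich kind the T cell genes varied more than most genes. CD3E spanned a 9.35-fold range over the 7 libraries, CD8A a 22.3-fold range and CD8B a 27.2-fold range. Of 6012 features with a median of at least 5 CPM in these libraries, 7.57%, 3.69% and 3.08% had a wider range. PTPRC (CD45), present on all leukocytes, spanned 2.63-fold and CSF1R, a macrophage receptor, 2.27-fold. NKG7 spanned 2.20-fold, and 35.4% of features had a wider range. A wide range was not particular to the T cell genes. In these libraries the 9 genes summed to 122 to 1078 CPM and neutrophil genes to 11.7 to 3856 CPM. Erythroid and platelet genes summed to 27.7 to 1753 CPM, dendritic cell genes to 12.8 to 255 CPM and B and plasma cell genes to 30.7 to 447 CPM. Pan-leukocyte genes (6567 to 9017 CPM) and monocyte and macrophage genes (7833 to 15717 CPM) varied less.

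**Figure D2:**
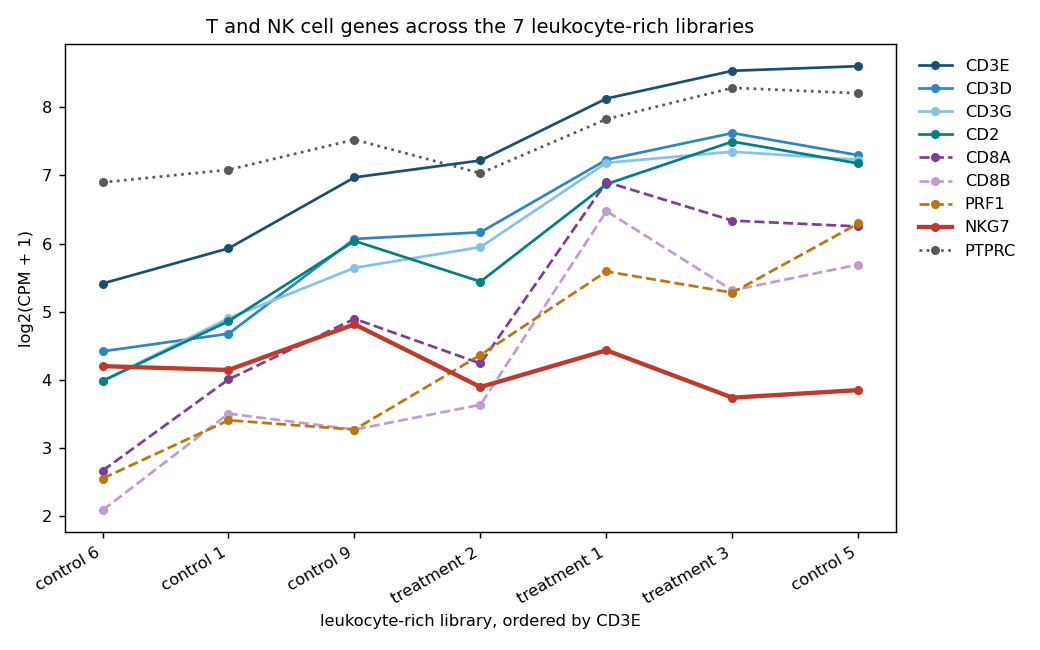
Levels of 8 of the genes and of PTPRC as log2(CPM + 1) in the 7 leukocyte-rich libraries, ordered by CD3E, with 1 line per gene. The CD3 chains, CD2, CD8A, CD8B and PRF1 are lowest in control replicate 6 (CD3E at 41.6 CPM), while NKG7 stays between 12.3 and 27.1 CPM.

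Ratios of counts between genes of 1 library do not depend on how the library is scaled, and were taken where both genes had at least 10 counts. Their size depends on transcript length, so only differences between libraries are read. The CD3 chains kept nearly fixed ratios in the leukocyte-rich libraries, with CD3D at 0.402 to 0.534 and CD3G at 0.355 to 0.518 of the CD3E count, and CD2 at 0.287 to 0.520. In granulosa-rich libraries the CD3D ratio ran from 0.308 to 0.730 (n = 8), while the CD3G ratio ran from 0.298 in treatment replicate 4 to 1.79 in control replicate 8. In that control library CD3G had 218 counts and CD3E 122.

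The CD8A count was 0.121 to 0.425 of the CD3E count in leukocyte-rich libraries, lowest in treatment replicate 2 and highest in treatment replicate 1. In granulosa-rich libraries it was 0.140 to 0.80 (n = 8). Control replicate 7 (0.80) and treatment replicates 6 and 7 (0.648 and 0.720) lay above all leukocyte-rich libraries, and the other 5 lay within their range. The CD8A count was 1.35 to 3.33 times that of CD8B in leukocyte-rich libraries. It was 8.73 times in granulosa-rich control replicate 7 (96 and 11 counts), 6.77 times in control replicate 3 (210 and 31 counts) and 0.375 times in control replicate 4 (15 and 40 counts), while the other 5 granulosa-rich libraries lay between 1.4 and 2.47.

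The CD3E count was 0.445, 1.32, 0.352 and 0.679 of the PTPRC count in leukocyte-rich control replicates 1, 5, 6 and 9, and 1.23, 1.14 and 1.19 in treatment replicates 1, 2 and 3. In granulosa-rich libraries it was 0.325, 0.720, 0.395, 0.403 and 0.233 in control replicates 2, 3, 4, 7 and 8, and 1.03, 0.142, 0.396 and 0.878 in treatment replicates 4, 5, 6 and 7. Control and treatment overlapped in both kinds, and in the leukocyte-rich kind they did so through control replicate 5. The NKG7 count was 0.0332 to 0.417 of the CD3E count in leukocyte-rich libraries, a 12.6-fold range, against a 1.33-fold range for CD3D to CD3E.

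**Figure D3:**
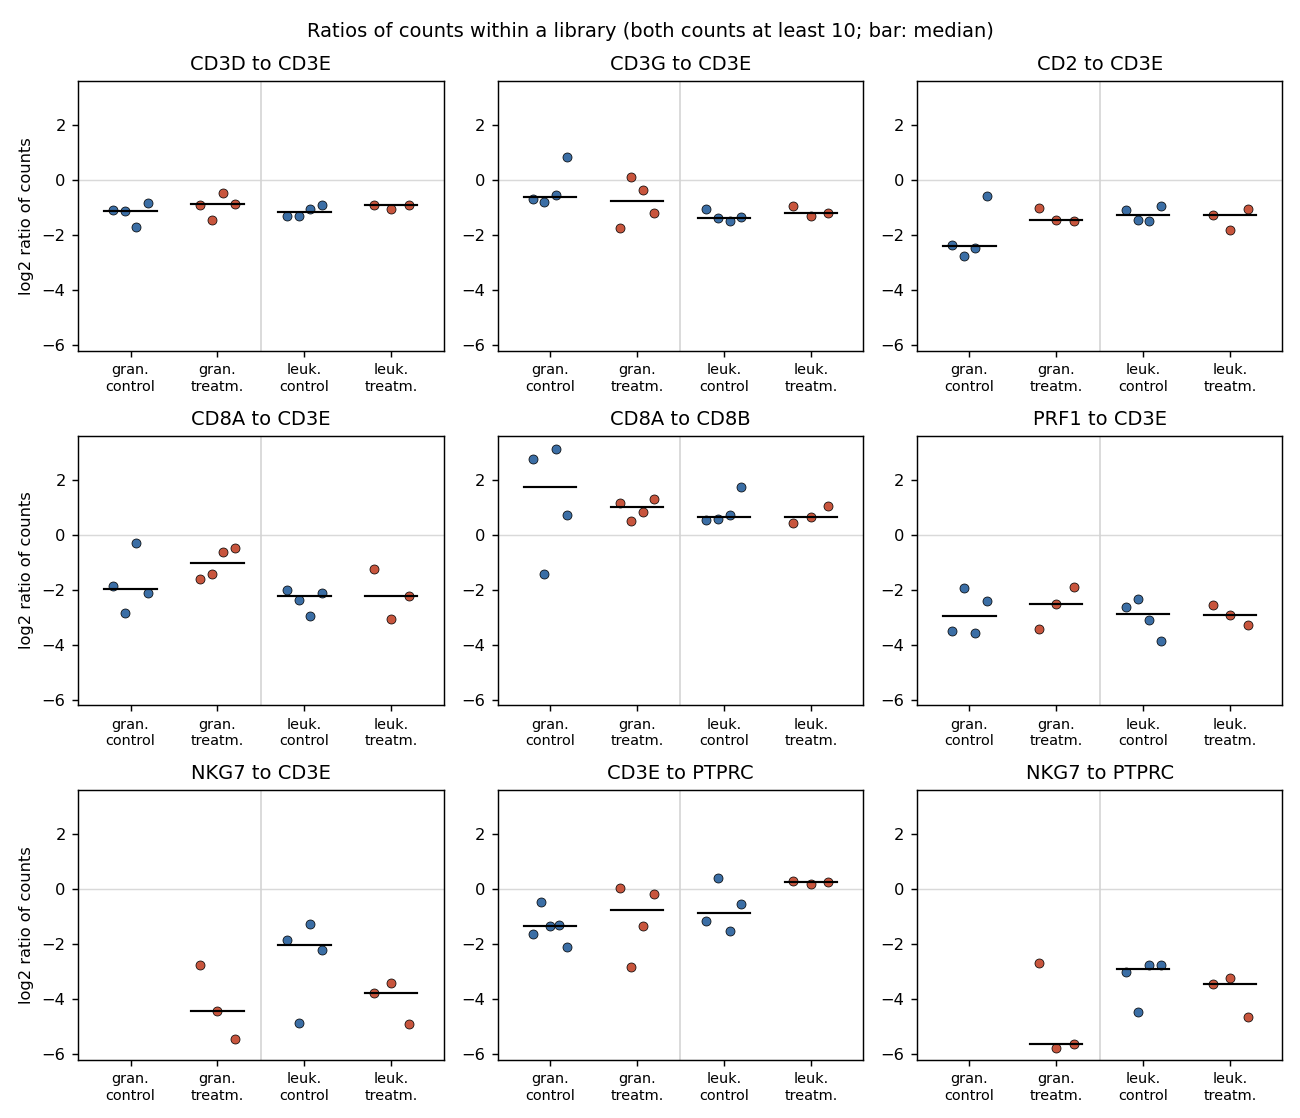
Log2 ratios of counts within a library for 9 pairs of genes, by kind of library (gran., granulosa-rich; leuk., leukocyte-rich) and label (blue, control; red, treatment), with a bar at the median and libraries under 10 counts of either gene left out. CD3D to CD3E is the narrowest of the leukocyte-rich ratios and NKG7 to CD3E spans 12.6-fold there.

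Patterns over libraries were compared as the correlation of log2(CPM + 1) after centring on the mean of each kind, over 16 libraries and as a description, since the genes share their libraries and depth. CD3D, CD3E, CD3G and CD2 had pairwise Pearson correlations of 0.91 to 0.99. Of 8086 genes with a symbol and a mean of at least 1 CPM, those most like CD3E included CD3D (0.99), LOC509513 (0.96), LOC510988 (0.95) and LAMP3 (0.95). RefSeq lists LOC509513 also as TCRB, a T cell receptor beta gene, and LOC510988 as GIMAP7. LAMP3 is a lysosomal membrane protein of mature dendritic cells. Those most like CD8A included LOC509513 (0.95), CD3E (0.93), SH2D1A (0.92) and CD27 (0.92). SH2D1A is a signalling adaptor of T and NK cells and CD27 a costimulatory receptor of lymphocytes.

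For PRF1 the 5 most alike were ICOS (0.93), a costimulatory receptor of T cells, CD96 (0.93), a receptor of T and NK cells, SH2D2A (0.93), SEPTIN1 (0.93) and HOPX (0.92). For NKG7 none of the 5 most alike was a T cell gene of the lists used here. They were CD86 (0.90), a costimulatory ligand of antigen-presenting cells, ARL11 (0.88), SCAMP5 (0.87), TGFBR2 (0.86) and TREM2 (0.85), a receptor of macrophages. These correlations were 0.89 to 0.97 in the granulosa-rich libraries alone, and 0.68, 0.80, -0.09, 0.55 and 0.57 in that order in the leukocyte-rich ones. NKG7 had correlations of 0.12 to 0.41 with CD3D, CD3E, CD3G, CD8A, CD8B, CD2 and PRF1, which among themselves had 0.76 to 0.99. In the 7 leukocyte-rich libraries alone, the correlations of NKG7 with these 7 genes lay between -0.46 and -0.11. In the 9 granulosa-rich libraries, where NKG7 had 0 to 34 counts, they lay between 0.32 and 0.62.

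The name of the group was checked against other genes of the 2 cell types. CD4, the coreceptor of helper T cells, ran from 19.7 to 215 CPM in leukocyte-rich and from 1.42 to 52.1 CPM in granulosa-rich libraries, although macrophages of some species also carry it. Of the 17 NK receptors and adaptors listed, 12 were measured. NCR1 (NKp46), NCR3 (NKp30), KLRD1 (CD94), KLRB1, KLRC1 and CD244 did not exceed 2.25 CPM in any library, and NCR3 had no count in the 7 leukocyte-rich ones, which allows up to 0.221 to 0.375 CPM. The other 6 had higher medians in the leukocyte-rich than in the granulosa-rich libraries. KLRK1 (NKG2D), FCGR3A and the adaptor HCST had medians of 5.57, 5.12 and 5.65 CPM in the leukocyte-rich ones. Which cells carried the RNA of FCGR3A and HCST was not tested. In the same libraries CD96, which T cells also carry, ran from 9.77 to 138 CPM. TYROBP and FCER1G, adaptors that myeloid cells share, ran from 140 to 203 CPM and from 45.7 to 211 CPM.

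The study's own contrast is treatment against control. Over all 16 libraries, with edgeR's quasi-likelihood test, no gene of 9653 passed an adjusted p of 0.05 (0% of features; 163, or 1.69%, had an unadjusted p under 0.05), and none of the 8 genes tested here did. On the log2(CPM + 1) scale the 9 control libraries averaged 5.00 ± 2.19 (SD) for CD3E and the 7 treatment libraries 5.90 ± 2.20 (SD), and edgeR's log2 fold change was 0.70 ± 0.93 (SE). CD8B had the largest estimate of the 8, 1.36 ± 0.93 (SE), with means of 2.35 ± 1.61 (SD) log2(CPM + 1) in the 9 control and 3.72 ± 1.81 (SD) in the 7 treatment libraries. CD8A stood at 1.15 ± 0.97, CD3D at 0.98 ± 0.95, CD2 at 0.84 ± 1.07, CD3G at 0.76 ± 0.85, PRF1 at 0.49 ± 0.99 and NKG7 at -0.16 ± 1.16 (log2 fold change ± SE). The adjusted p was 0.9999 for each. Estimates were above 0 for 7 of the 8, with a median of 0.80, where 52.1% of all features had one above 0 and the median was 0.01. CD3D, CD3E, CD3G, CD8A, CD8B, CD2 and PRF1 correlated at 0.76 to 0.99 among themselves. The signs of their estimates, here and in the fits below, are therefore not independent. Single libraries moved the estimates. Without treatment replicate 1 CD8B was at 0.58 and PRF1 at 0.08, and without control replicate 5 they were at 2.54 and 1.97. No gene passed in either case. In this fit, which pools both kinds of library, the differences were not told apart from the spread between libraries.

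In the 9 granulosa-rich libraries (5 control, 4 treatment) edgeR called 0 of 9272 features (0%; 433, or 4.67%, had an unadjusted p under 0.05), and 7 of the genes entered the fit. Of these, 6 had estimates above 0, as had 52.9% of all features. CD8B was at 1.84 ± 0.81 (SE; unadjusted p = 0.0462, adjusted p = 0.983), with treatment replicates 6 and 7 (14.0 and 9.91 CPM) far above the highest control (2.86 CPM) and replicate 5 (1.02 CPM) below 3 of the 5 controls. Without treatment replicate 6 it was at 1.33. By the two-sided exact permutation test of log2(CPM + 1) in these libraries, p was 0.103 for CD8B, and 0.310 adjusted over the 9 genes. CD8A was at 1.03 ± 1.21, PRF1 at 0.88 ± 0.94, CD2 at 0.84 ± 1.06 and CD3D at 0.60 ± 1.00. Without control replicate 3 these 4 were at 1.81, 1.51, 1.54 and 1.82. Leaving out other single libraries took CD8A down to 0.63 and PRF1 to 0.26 (both without treatment replicate 7), CD2 to 0.57 (without control replicate 2) and CD3D to 0.17 (without treatment replicate 6). CD3E stood at 0.19 ± 0.86 and CD3G at -0.26 ± 0.92. Without control replicate 3 they were at 1.30 and 0.46, and CD3E fell below 0 without control replicate 2, treatment replicate 6 or treatment replicate 7. NKG7 did not pass the filter on low counts, and on the log2(CPM + 1) scale its control libraries averaged 0.33 and its treatment libraries 1.29 (two-sided exact permutation test, p = 0.0397, and 0.286 adjusted over the 9 genes). Treatment replicate 4, with 34 counts, carried the highest value. Levels of other leukocytes differed between these libraries as well. The 13 measured monocyte and macrophage genes summed to 24.0 to 797 CPM in control and 376 to 2022 CPM in treatment, and the 12 pan-leukocyte genes to 19.3 to 1322 CPM and 285 to 1186 CPM. Among the macrophage genes, CD163 and C1QB were at 0 in all 5 control libraries. The part of these leukocyte levels in the estimates was not tested.

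In the 7 leukocyte-rich libraries (4 control, 3 treatment) edgeR called 0 of 9912 features (0%; 259, or 2.61%, had an unadjusted p under 0.05). Estimates were above 0 for 7 of the 8 genes, as for 51.1% of all features. CD8B was at 1.34 ± 1.00 (SE), CD8A at 1.23 ± 0.91, CD3D at 1.09 ± 0.74, CD3G at 1.04 ± 0.77, CD2 at 0.89 ± 0.81, CD3E at 0.82 ± 0.77 and PRF1 at 0.48 ± 0.97, and NKG7 at -0.26 ± 0.29 (adjusted p = 0.9996 for each). For CD3E, treatment replicates 1, 2 and 3 lay above control replicates 1, 6 and 9, and control replicate 5 lay above all of them. Without control replicate 5 the estimates were 1.86 for CD3E, 2.63 for CD8B and 2.19 for PRF1, and still no gene passed. Without treatment replicate 1, the library with the most INHA of these 7, they were 0.82, 0.52 and 0.24. Its 12 granulosa genes summed to 5317 CPM, against 171 to 340 CPM in the other 6. The pan-leukocyte genes summed to 8233 to 9017 CPM in control and 6567 to 8083 CPM in treatment, and the 10 theca and stroma genes to 534 to 2330 CPM and 402 to 11056 CPM. The part of these levels in the estimates was not tested.

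With the kind of library as a term in the fit of all 16, CD8B was at 1.61 ± 0.63 (SE; edgeR, unadjusted p = 0.0217, adjusted p = 0.999). Permuting the labels within each kind gave 1.41 for it on the log2(CPM + 1) scale (two-sided exact permutation test over 4410 splits, p = 0.0379, and 0.206 adjusted over the 9 genes). The estimates of the other 7 genes in this fit lay between 0.34 (CD3G) and 1.12 (CD8A), and 0 of 9653 features were called (0%; 242, or 2.51%, had an unadjusted p under 0.05). All 8 estimates were above 0 (median 0.86), as were 56.6% over all features, and as above these signs are not independent. In the same fit 12 of 12 monocyte and macrophage genes (median 0.94, with 3 at an unadjusted p under 0.05) and 9 of 11 pan-leukocyte genes (median 0.19) had estimates above 0, and none passed. Their part in the result was not tested. NKG7 was at 1.07 ± 0.66 (SE) here, on the other side of 0 from the fit without the term. It did not pass the filter in the granulosa-rich libraries alone, where it had 0 to 34 counts. It entered the fits of all 16 through the leukocyte-rich ones, so no conclusion is drawn from its change of sign. The effect of treatment was compared between the kinds by an interaction term, which 0 of 9653 features passed (0%; 515, or 5.34%, had an unadjusted p under 0.05). For NKG7 the granulosa-rich effect exceeded the leukocyte-rich one by 2.52 ± 1.14 (SE, log2; edgeR, unadjusted p = 0.0424, adjusted p = 0.914). This value depends on the same low counts and cannot tell whether the effect differed between the kinds. For the other 7 genes the difference lay between -1.27 (CD3G) and 0.51 (CD8B).

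**Figure D4:**
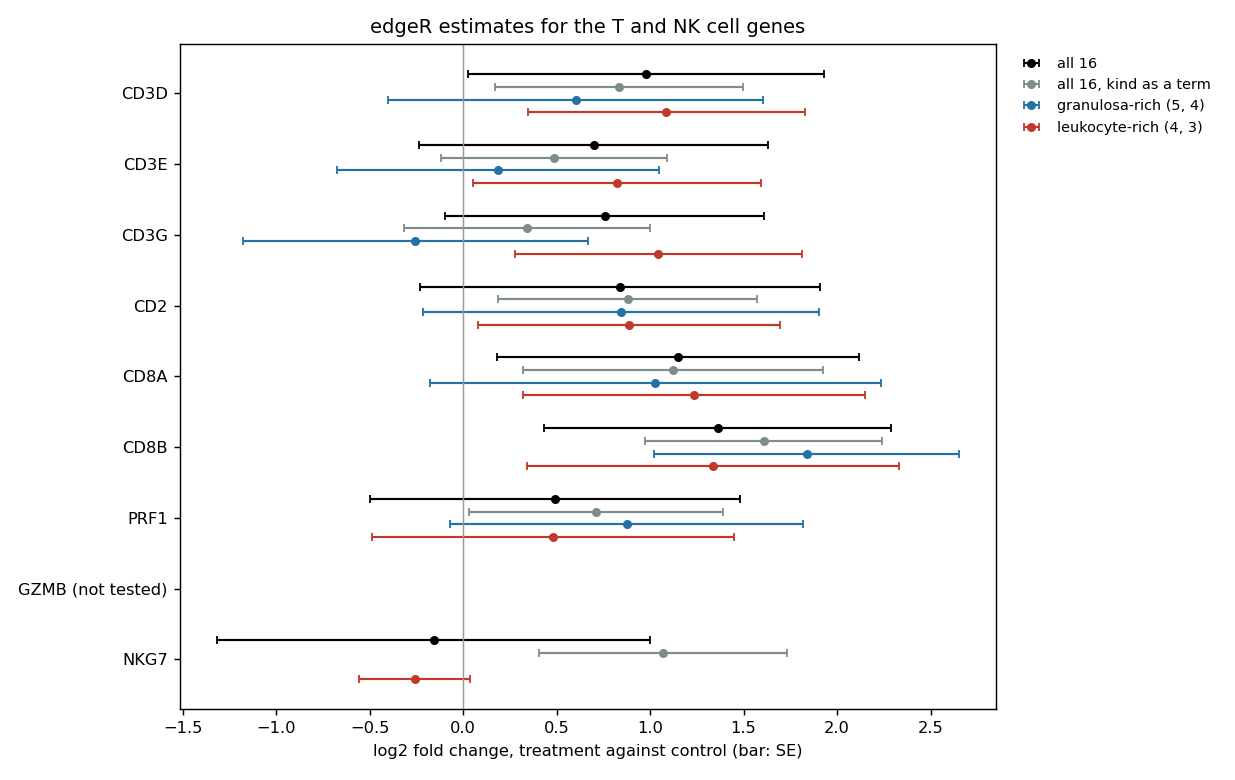
Log2 fold change of treatment against control (edgeR) with its standard error for each gene, in all 16 libraries, in all 16 with the kind of library as a term, and within each kind (control and treatment libraries in brackets). None of the estimates passed the test, and those of CD8B lie between 1.34 and 1.84.

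The wider T and NK cell lists were described in the fit of all 16 libraries, where no member of any list passed (0% of features called). Of 18 tested genes of the T cell receptor complex and its signalling, 16 had estimates above 0, with a median of 0.76. SH2D1A was at 1.31 ± 0.88 (SE) and THEMIS, a T cell development protein, at 1.17 ± 0.82, while CD4 was at 0.87 ± 0.91. Of 7 T cell transcription factors 6 were above 0 (median 0.84), with EOMES at 1.12 ± 0.64 and STAT4 at 0.99 ± 0.79, both used by cytotoxic and interferon-producing cells, and RUNX3 at -0.61 ± 0.76. Of 11 cytotoxic granule and effector genes 8 were above 0 (median 0.35), among them the granzymes GZMA at 0.91 ± 0.81 and GZMK at 1.11 ± 1.12. SRGN, a granule proteoglycan that many cells make, was at 0.22 ± 0.42 (SE) and had medians of 4580 CPM in leukocyte-rich and 5103 CPM in granulosa-rich libraries.

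Of 6 NK receptors and adaptors tested 4 were above 0 (median 0.63), with the activating receptor KLRK1 (NKG2D) at 1.18 ± 0.99 (SE), FCGR3A at -0.80 ± 0.85 and TYROBP at -0.19 ± 1.15. Of 9 cytokine receptors and homing genes 3 were above 0 (median -0.08). The chemokine receptors CXCR3 and CXCR6 stood at 1.04 ± 1.27 and 0.85 ± 1.23, and IL2RG, the shared chain of several interleukin receptors, at -0.01 ± 0.89. Of 3 tested ligands 1 was above 0 (median -0.02). CXCL9, a ligand of CXCR3, was at -1.82 ± 1.58, CXCL10, another, at 0.09 ± 1.18 and CD48, a ligand of CD2, at -0.02 ± 0.92. Pan-leukocyte and monocyte and macrophage genes had 5 of 11 and 5 of 12 estimates above 0, both with a median of -0.02, and theca and stroma genes had 8 of 10 (median 0.64). With the kind of library as a term, the monocyte and macrophage genes had 12 of 12 (median 0.94) and the pan-leukocyte genes 9 of 11 (median 0.19). B and plasma cell genes had 0 of 6 (median -0.79).

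In the leukocyte-rich libraries alone, 17 of 20 T cell receptor and signalling genes had estimates above 0 (median 0.87, against 51.1% above 0 and a median of 0.01 over all features). So had 9 of 11 granulosa genes (median 1.46, with 4 at an unadjusted p under 0.05), 10 of 10 theca and stroma genes (median 1.39) and 4 of 4 endothelial genes (median 1.47), and none passed. Their part in the result was not tested. The 2 T cell genes with an unadjusted p under 0.05 (edgeR) were CD28, the main costimulatory receptor of T cells, at 1.93 ± 0.76 (SE) and SH2D1A at 1.48 ± 0.53, with an adjusted p of 0.9996 for both. CD28 is named after its value was seen. In the granulosa-rich libraries 11 of 12 were above 0 (median 0.61, against 52.9% above 0 and a median of 0.04 over all features). None of the 12 had an unadjusted p under 0.05 (edgeR).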

How the data were processed

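The deposited files hold raw read counts per RefSeq accession, 1 file per library, and an accession without a line was taken as 0. The tools were cutadapt, Bowtie2 and SAMtools, per the submitters' processing notes. Tool versions, build, annotation and how reads with several matches were handled were not given in the sources used here, so no coordinates are printed. Per the labels' protocols the kit was NEBNext Ultra with poly(A) selection, so overlapping and antisense genes cannot be told apart. Genomic records (133 accessions, 0.712 to 1.92% of a library) were left out. RefSeq's ARS-UCD2.0 table named 18973 of 27173 transcripts, versions ignored. The counts of NKG7 and of PRF1 came from a predicted transcript each (XM_005219544.2 and XM_005226334.3), but for 1 count of PRF1.

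Treatment was compared with control by edgeR 4.0.16 (R 4.3.3) quasi-likelihood tests over the whole table, with robust estimation, TMM scaling (factors 0.614 to 1.18), edgeR's filter on low counts, and Benjamini-Hochberg adjustment at 0.05. Standard errors are the estimate divided by the square root of F. The script recovered large known changes in simulated counts. These had the same spread for all genes and no kinds of library, so they do not show how small a change could be found here. Single values were tested by exact permutation. Alternatives were limma-voom (limma 3.58.1), DESeq2 1.42.0, other scalings and filters, the replicate number as a block, counts by accession and each library left out.

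Genes named are the 9, INHA, PTPRC, CSF1R, CD4 and CD247, the 2 genes of lowest p and the most abundant one of each T and NK list, and the 5 genes most like each of CD3E, CD8A, NKG7 and PRF1, of which 1 is not reported here. CD247 ran from 0 to 3.59 CPM. All other genes named, the rest of the measured NK receptors and adaptors, CD163, C1QB and CD28, were added after their values were seen. The 9 genes and all lists were chosen with earlier results of these data known.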

Additional observations from a re-analysis of the deposited data

Results flagged for a closer look

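Each of the 9 genes was searched for libraries that lie far from the rest of their group. Groups were taken from the control and treatment libraries and their parts by kind of library. Of the possible combinations of gene and group, 45 were checked, which is not all of them. Chance marks about 1 in 20 groups, and 2 were marked. CD2 in granulosa-rich treatment replicate 5 stood at 0.712 CPM (7 counts), while the other 3 libraries of that group lay between 12.2 and 13.9 CPM. GZMB in granulosa-rich control replicate 3 stood at 0.831 CPM (9 counts), while the other 4 libraries of that group had 0 counts. With the other 4 at 0 the gap fills the whole range whatever the value, so the rate of 1 in 20 does not apply to this mark.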

How the results depend on the processing

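No gene of the 9 passed an adjusted p of 0.05 under any alternative run (lowest adjusted p over the fits 0.423, for CD2 in granulosa-rich libraries with the replicate block). The count of called features was 0 in all fits and alternatives except with DESeq2, which called 27 in the granulosa-rich libraries and 1 with a term for the kind, none of them among the 9. The count of genes higher in every leukocyte-rich library, 2, was 1 when CPM left out the 10 most abundant genes and 2 to 3 without single libraries. Leaving out single libraries moved the estimate of NKG7 over all libraries between -0.60 and 0.28, those of CD3E and CD3G in granulosa-rich libraries between -0.059 and 1.30 and between -0.86 and 0.46, and the difference between kinds from -0.82 to 0.62 for CD2, -1.31 to 0.69 for CD3D, -1.62 to 0.44 for CD3E, -1.10 to 0.53 for CD8A, -0.78 to 1.26 for CD8B and -1.27 to 0.99 for PRF1. Other changes of sign were NKG7 over all libraries with limma-voom (1.31), the replicate block (1.05) and the permutation test (0.39), CD3G in granulosa-rich libraries with the same 3 (0.52, 0.45 and 0.37), and the difference between kinds with library size alone (0.027 for CD8A, 0.11 for CD2) and limma-voom (1.03 for CD8A, 0.57 for CD2, -0.25 for PRF1). The cause was not tested. Deviations from the label mean correlated at 0.60, 0.31 and 0.44 in same-numbered control and treatment libraries of 1 kind (numbers 1, 4 and 7). They correlated at -0.60, -0.27, -0.45 and -0.60 where the kinds differed (numbers 2, 3, 5 and 6). The treatment library was closest to its own number in 0 of 7. The deviations were not centred on kind, so the check cannot decide whether the numbers pair the libraries. With the replicate block 0 features were called, and the estimates of the 8 genes over all libraries lay between 1.05 and 2.21. For the leukocyte-rich libraries no paired analysis was possible because the groups share 1 number only. At this depth GZMB, and NKG7 in granulosa-rich libraries, rest on at most 14 and 34 counts. Where a minimum of 10 counts in every library was asked for, genes under it gave no value.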
